A study of Homo sapiens with 8 samples.

Results

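A set of 10 genes that regulate or assemble protein phosphatase 2A (PP2A) were followed in PC3 cells after silencing of IER5L. They were chosen by name for their role and not by their values, though with earlier results of these data known. The set was SET, CIP2A, ANP32A, MASTL, ARPP19, ENSA, PPME1, LCMT1, PTPA and IGBP1, 10 of the 58051 genes in the count table. PC3 is an established human prostate cancer cell line. RNA-seq was run on 4 samples transduced by lentivirus with a scrambled hairpin (shScramble) and 4 transduced with the sh2 hairpin against IER5L (shIER5L), all under puromycin selection, so both conditions carry a vector and all silenced samples carry the same hairpin. The labels call the samples biological replicates and the methods describe plates of each line. No source used here says whether plates came from separate transductions. The p-values set the difference between conditions against the spread between these samples. If each line came from a single transduction, a difference between the lines cannot be told apart from an effect of the hairpin.

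PP2A is a serine/threonine phosphatase made of a scaffold, a catalytic and an exchangeable regulatory B subunit. SET, ANP32A and CIP2A are protein inhibitors of it. MASTL, the Greatwall kinase, phosphorylates ARPP19 and ENSA, which then block PP2A that holds a B55 subunit, a switch best known from entry into mitosis. LCMT1 methylates the end of the catalytic subunit and PPME1 removes that methyl group. PTPA is an activating chaperone of PP2A, and IGBP1 (alpha4) binds free catalytic subunits and keeps them stable. The comparison asks whether the transcripts of these regulators changed when IER5L, an immediate early response gene of a family that binds PP2A, was silenced.

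The hairpin sequence is shown first because it defines the silenced samples and because a hairpin can act on other transcripts through short matches in their 3′ UTRs. Its listed 21 bases had a full match in annotated transcripts of IER5L only (GENCODE v44). In capitals is the stretch that holds the heptamers ACATCTC and CATCTCA.
sh2 IER5L: gacgcgtccaACATCTCAaac
The reverse complement of this sequence was taken as the guide for the search, and the guide strand and its start were assumed. The heptamer that pairs with bases 2 to 8 of that guide is TCTCAAA, and CATCTCA and ACATCTC are the ones for a guide that starts 2 or 3 bases further in. Each was searched on the transcript strand of the longest annotated 3′ UTR, and ACATCTC and CATCTCA overlap each other. Among the 10 genes, PTPA alone held ACATCTC and none held CATCTCA, while 24.0% of 12701 protein-coding genes tested held either. Over all annotated coding transcripts with a 3′ UTR, 9 of 19 of PTPA and 1 of 7 of SET held one of the pair, and none of the other 8 genes did. TCTCAAA was found in 4 of the 10, SET, ANP32A, MASTL and ENSA, and in 28.4% of the 12701. The sites below are on hg38 with 10 bases on either side and the heptamer in capitals.
PTPA, chr9:129148159-129148165, plus strand: gactgtagccACATCTCtcccgctccc
SET, chr9:128696043-128696049, plus strand: ggtataaagcTCTCAAAtgtgaccatg
ANP32A, chr15:68779770-68779776, minus strand: tgttcctgacTCTCAAAgaggatggtt
ENSA, chr1:150625051-150625057, minus strand: ttgctctggcTCTCAAAtaatataaag
ENSA, chr1:150623592-150623598, minus strand: tctccgatctTCTCAAAttctgtactt
The MASTL 3′ UTR held 2 copies of TCTCAAA. They lie past 27186924, where MASTL ends in the annotation of the counts, and before its GENCODE v44 end at 27187953. All the sites are matches of letters. None of the 5 genes that held one passed the test below, against 3.93% of all genes tested that did. Over the 12701 genes, the median log2 fold change (shIER5L relative to shScramble) was 0.0235 with TCTCAAA and 0.0081 without. It was -0.0068 with CATCTCA or ACATCTC and 0.018 without. An effect of the hairpin through such sites was not tested.

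Counts on genes summed to between 21512128 and 24662190 per sample. Values are given as CPM, the read counts of a gene over the library size after TMM scaling. A CPM is a share of the sample's counts, and fewer cells that express a gene cannot be told apart from less RNA per cell. The epithelial gene KRT18 lay between 381.5 and 425 CPM and VIM between 516.1 and 568.4 CPM, KLK3 was at 0, and the leukocyte gene PTPRC reached 0.161 CPM. IER5L stood at 3.91, 6.51, 5.62 and 3.23 CPM in shScramble replicates 1 to 4 and at 2.73, 3.03, 2.04 and 1.32 CPM in shIER5L replicates 1 to 4. Every silenced sample was below every control sample. The log2 fold change, shIER5L relative to shScramble here and throughout, was -1.08 (SE 0.248, adjusted p = 0.0212, edgeR quasi-likelihood test with Benjamini-Hochberg adjustment over the 16959 genes tested). It rests on 29 to 154 counts per sample. The adjusted p was 0.0937 without shScramble replicate 2, 0.078 without shScramble replicate 3 and 0.0891 without shIER5L replicate 3.

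All 10 genes passed the filter on low counts and none passed the test at an adjusted p of 0.05, against 3.93% of all genes tested, 2.46% higher in shIER5L and 1.46% lower. No member had an unadjusted p under 0.05 either, against 16.5% of all genes, and DESeq2 and limma voom also called 0 of the 10. Without shIER5L replicate 2, 3 of the 10 had an unadjusted p under 0.05 (ARPP19, CIP2A and LCMT1), against 17.9% of all genes, and without shIER5L replicate 1 ARPP19 did, against 15.7%. The estimates were higher in shIER5L for 6 genes and lower for 4, with a median log2 fold change of 0.013 and a median absolute log2 fold change of 0.042. Over all genes tested these medians were 0.0021 and 0.112. The 95% interval of the log2 fold change lay between -0.5 and 0.5 for all 10, as it did for 62.3% of all genes, and 0.5 is the fold threshold that the study set for a changed gene. The bound farthest from 0 was 0.38, for LCMT1. The members' SEs ran from 0.043 to 0.0907, with a median of 0.0533 against 0.109 for all genes, and abundant genes have smaller ones. At these SEs, an estimated log2 change of between 0.16 (ANP32A) and 0.34 (LCMT1) was needed to pass the test, so smaller estimates could not be called. These are cuts on the estimate, and the power to find a true change was not computed.

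**Figure D1:**
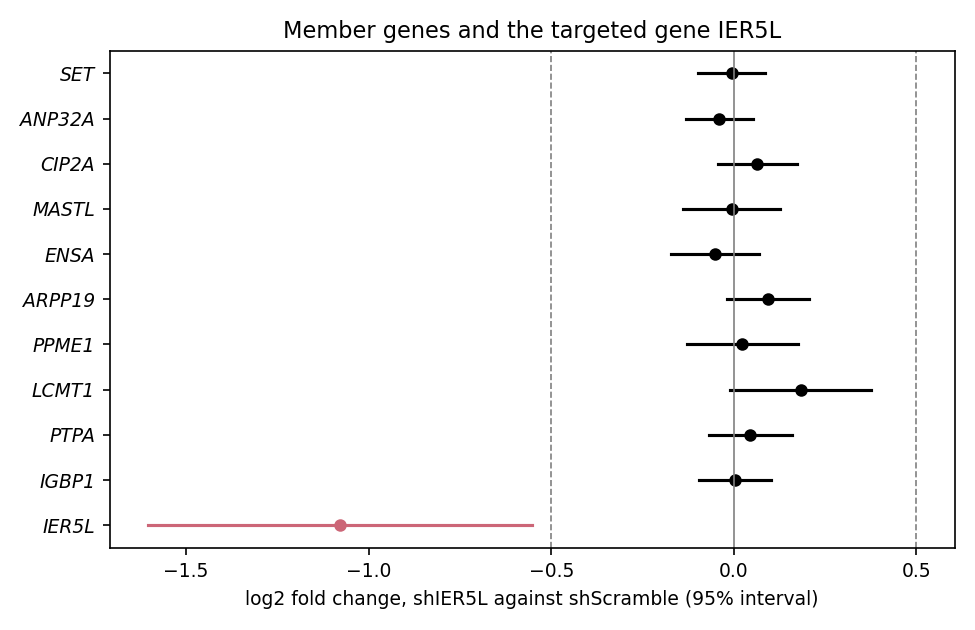
Log2 fold change (shIER5L relative to shScramble) of the 10 genes and of IER5L, with bars for the 95% interval. The 10 intervals all cross 0 and stay between -0.5 and 0.5, while that of IER5L runs from -1.60 to -0.55.

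The 3 inhibitors stayed close to their control levels. SET (ENSG00000119335, chr9:128683424-128696400 on hg38, plus strand), a histone chaperone that also inhibits PP2A, stood at 1249, 1141, 1148 and 1202 CPM in shScramble replicates 1 to 4 and at 1181, 1102, 1227 and 1210 CPM in shIER5L replicates 1 to 4. The conditions overlapped throughout, with means of 1185 ± 50.8 and 1180 ± 55.4 CPM (SD, n = 4 each). SET had a log2 fold change of -0.0061 (SE 0.0436, adjusted p = 0.969, edgeR), and its 95% interval ran from -6.61% to 6.17%.

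CIP2A (ENSG00000163507, chr3:108549869-108589644 on hg38, minus strand), which protects MYC from PP2A, stood at 213, 210.1, 200.2 and 210.1 CPM in shScramble and at 209, 201, 231 and 231 CPM in shIER5L replicates 1 to 4. Its shIER5L replicates 3 and 4 were above all control samples and replicates 1 and 2 were within their range. The CV was 2.75% in shScramble and 7.16% in shIER5L. Its log2 fold change was 0.06 (SE 0.0507, adjusted p = 0.593, edgeR), with an interval from -2.97% to 12.6%. ANP32A (ENSG00000140350, chr15:68778535-68820897 on hg38, minus strand), the relative of SET in name and in binding PP2A but of another protein family, stood at 209, 201, 215 and 210.3 CPM in shScramble and at 206, 193, 212 and 201 CPM in shIER5L. The lowest sample was a silenced one and the highest a control, and the ranges overlapped. ANP32A had a log2 fold change of -0.039 (SE 0.043, adjusted p = 0.726, edgeR).

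In the Greatwall pathway the kinase and its substrates also overlapped between conditions. MASTL (ENSG00000120539, chr10:27154824-27186924 on hg38, plus strand) stood at 49.1, 46.2, 43 and 45.7 CPM in shScramble and at 48.2, 42.8, 46.8 and 45.2 CPM in shIER5L, with a log2 fold change of -0.0062 (SE 0.0628, adjusted p = 0.979, edgeR). ARPP19 (ENSG00000128989, chr15:52547045-52569883 on hg38, minus strand) stood at 226, 208, 225 and 228 CPM in shScramble and at 223, 220.4, 250.4 and 253 CPM in shIER5L. As for CIP2A, shIER5L replicates 3 and 4 were the highest samples. ARPP19 had a log2 fold change of 0.09 (SE 0.053, adjusted p = 0.411, edgeR), with an interval from -1.24% to 15.5%.

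ENSA (ENSG00000143420, chr1:150600851-150629612 on hg38, minus strand), the close paralogue of ARPP19, stood at 61.5, 61, 57.1 and 56.1 CPM in shScramble and at 58.8, 55.8, 54.2 and 58.7 CPM in shIER5L. Its 2 lowest samples were silenced ones and its 2 highest were controls, with overlap between. Its log2 fold change was -0.051 (SE 0.0564, adjusted p = 0.731, edgeR). The log2 ratio of ENSA to ARPP19, per kilobase of exon, was -1.58 ± 0.113 in shScramble and -1.72 ± 0.129 in shIER5L (SD, n = 4 each), and the conditions overlapped. Replicates 3 and 4 of shIER5L also lay closer to each other over all genes than to replicates 1 and 2: the chi-square per gene was 4.16 between 3 and 4 and 3.32 between 1 and 2, against 7.1 to 11.6 for the other 4 pairs. The controls also fell into pairs by this measure, at 3.43 between 1 and 4 and 2.8 between 2 and 3, against 5.2 to 6.3 for the other 4 pairs. Correlations of log2 CPM set the pairs apart less. In shIER5L they were 0.9913 between 1 and 2, 0.991 between 3 and 4 and 0.9907 between 2 and 3. In the controls they were 0.992 between 2 and 3 and 0.9909 between 1 and 4, as between 2 and 4. The part of this grouping in the levels of CIP2A and ARPP19 was not tested.

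The methylation pair held the one gene whose conditions did not overlap. LCMT1 (ENSG00000205629, chr16:25111729-25178231 on hg38, plus strand), the methyltransferase, stood at 14.2, 13.9, 13.8 and 12.1 CPM in shScramble and at 15.9, 14.4, 14.4 and 16.6 CPM in shIER5L. Every silenced sample was above every control sample, by a small margin at replicates 2 and 3. Among all genes tested, 10.9% had conditions that did not overlap, 6.33% with shIER5L higher, so 1 in 10 members is close to that background. The means were 13.5 ± 0.934 and 15.4 ± 1.11 CPM (SD, n = 4 each). The log2 fold change of LCMT1 was 0.18 (SE 0.0907, adjusted p = 0.336, edgeR) and did not pass the test, with an interval from -0.682% to 29.7%. LCMT1 had the fewest counts of the 10 genes, 271 to 364 per sample.

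PPME1 (ENSG00000214517, chr11:74171099-74254703 on hg38, plus strand), the methylesterase, stood at 26.9, 32, 31.2 and 31.3 CPM in shScramble and at 31.1, 32.2, 29.9 and 30.3 CPM in shIER5L. The first control sample was the lowest of all, while 3 of the 4 silenced samples lay below the other 3 controls. The log2 fold change was 0.023 (SE 0.0716, adjusted p = 0.921, edgeR), and -0.032 without shScramble replicate 1. The log2 ratio of PPME1 to LCMT1, per kilobase, was -0.44 ± 0.185 in shScramble and -0.59 ± 0.124 in shIER5L (SD, n = 4 each), with overlap. That is a difference of -0.16, and it was not tested. The overlap rests on shScramble replicate 1 at -0.68, the sample with the lowest PPME1. The other controls, at -0.40, -0.42 and -0.24, lay above all silenced samples, at -0.64, -0.44, -0.55 and -0.74.

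The assembly factors were level as well. PTPA (ENSG00000119383, chr9:129110950-129148946 on hg38, plus strand) stood at 110.2, 113, 122 and 116 CPM in shScramble and at 126, 124, 109 and 117 CPM in shIER5L. Both the lowest sample and the 2 highest were silenced ones, and the log2 fold change was 0.045 (SE 0.0536, adjusted p = 0.759, edgeR). IGBP1 (ENSG00000089289, chrX:70133449-70166324 on hg38, plus strand) stood at 112, 106, 116 and 106 CPM in shScramble and at 109, 112, 111 and 109 CPM in shIER5L. All 4 silenced samples lay inside the control range, with a CV of 1.33% against 4.28% in the controls. IGBP1 had a log2 fold change of 0.0033 (SE 0.0463, adjusted p = 0.985, edgeR).

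**Figure D2:**
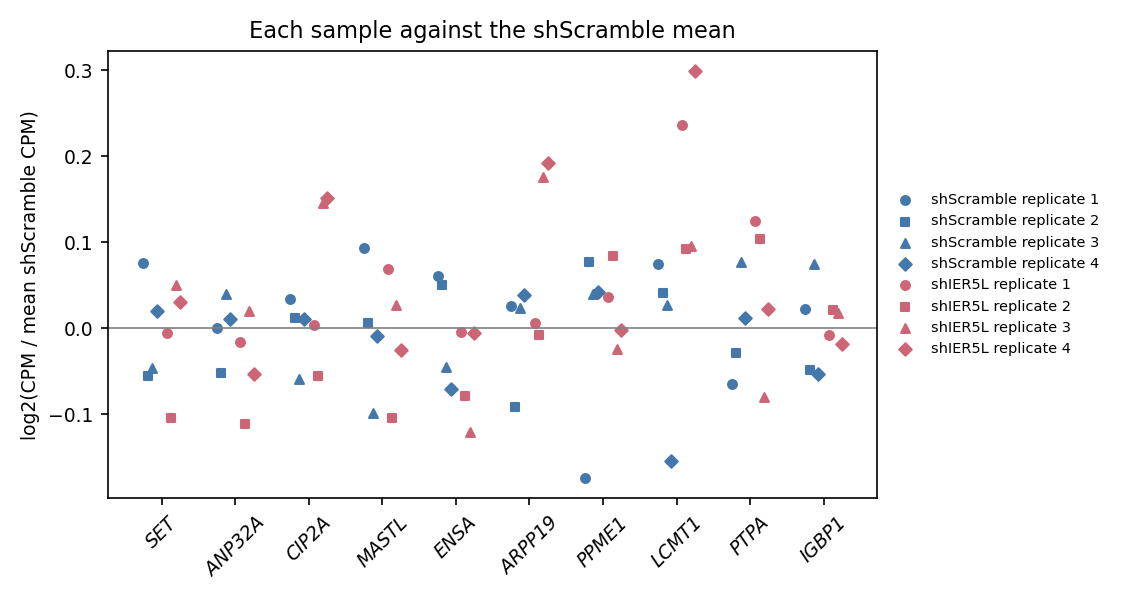
Each point is 1 sample of 1 gene, as the log2 difference of its CPM from the shScramble mean of that gene. LCMT1 alone has all 4 shIER5L samples above all 4 shScramble samples, and CIP2A and ARPP19 have shIER5L replicates 3 and 4 on top.

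The level of the 10 genes, as CPM per kilobase of exon, spanned from PPME1 at 3.84 to SET at 272 in shScramble. The order was SET (272), IGBP1 (59), CIP2A (45.5), ARPP19 (32), ANP32A (27.7), PTPA (20.5), MASTL (12.7), ENSA (10.7), LCMT1 (5.19) and PPME1 (3.84). The order in shIER5L was the same, from SET at 271 to PPME1 at 3.9. The range over all 8 samples of each gene was separate from that of its neighbours in the order, the closest being MASTL, 11.8 to 13.5, and ENSA, 9.87 to 11.2. SET lay at percentile 99.4 of the genes tested by this level and IGBP1 at 95, while LCMT1 and PPME1 lay at 59.4 and 53.3. SET exceeded ANP32A by 3.30 ± 0.0662 on the log2 scale in shScramble and by 3.33 ± 0.0352 in shIER5L (SD, n = 4 each). The exonic lengths are those of the table, which sums all annotated exons, and a gene with long exons that PC3 cells do not use would come out too low.

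**Figure D3:**
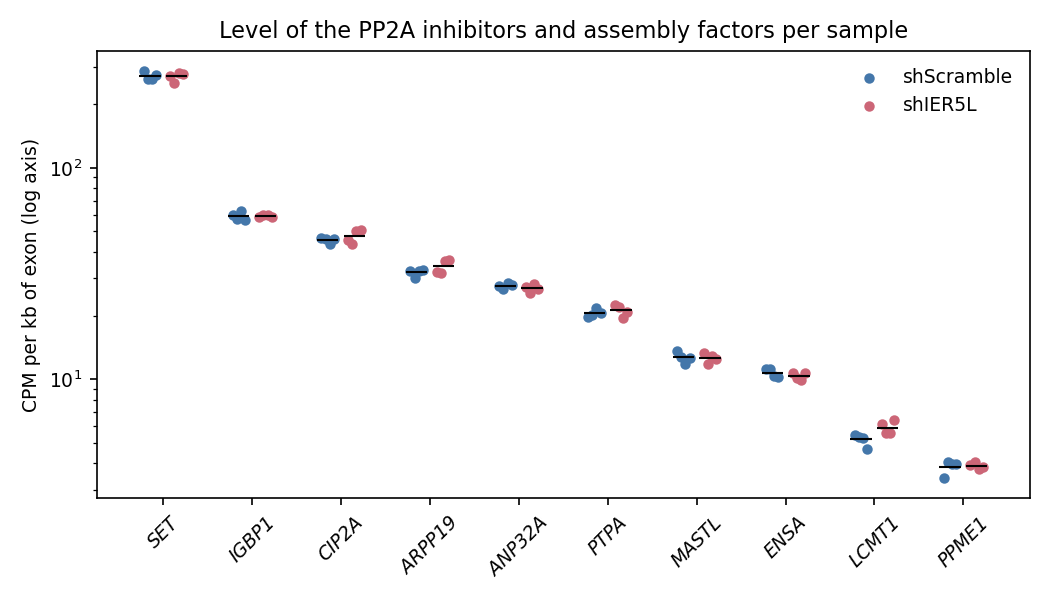
CPM per kilobase of exon of the 10 genes in each of the 8 samples, on a log axis, in order of level. SET is the most abundant, LCMT1 and PPME1 are the least, and no gene overlaps its neighbour in the order.

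Near-identical copies and overlapping genes could move reads between features. SET has 19 annotated pseudogenes, 13 of them with counts, which summed to between 0.315% and 0.511% of the SET count in a sample. The 4 copies of IGBP1 summed to between 0.374% and 0.994%, those of ANP32A, ARPP19 and ENSA reached at most 0.15%, and the other 5 genes had none under their symbols. Reads were counted without strand and reads on exons of 2 genes were given to neither. The exons of MASTL share 443 bases with YME1L1 on the other strand, 12.2% of the MASTL exonic length. The shares were 4.3% for IGBP1, at most 2.1% for either partner of PPME1, and 1.33% for PTPA, and the remaining 6 genes share no exonic bases with another gene. For IER5L the shares were 13.5% with IER5L-AS1 and 25.7% with an unnamed gene, both on the other strand, so part of its reads may be missing from the counts above.

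PTPA and SET lie on chromosome 9 with IER5L. On hg38, IER5L is at chr9:129175552-129178262, PTPA lies 26.6 kb away at lower coordinates, and SET lies 479 kb away on the same side. Of the 48 genes tested within 1 Mb of IER5L, 0 passed an adjusted p of 0.05 in edgeR, DESeq2 or limma voom, and 2 had an unadjusted p under 0.05 in edgeR. The shares over all genes tested in edgeR were 3.93% and 16.5%. Estimates were lower for 29 and higher for 19, with a median log2 fold change of -0.047. Over all genes tested, 50.6% were higher and the median was 0.0021. PTPA and SET, at 0.045 and -0.0061, both lay above the median of the window.

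**Figure D4:**
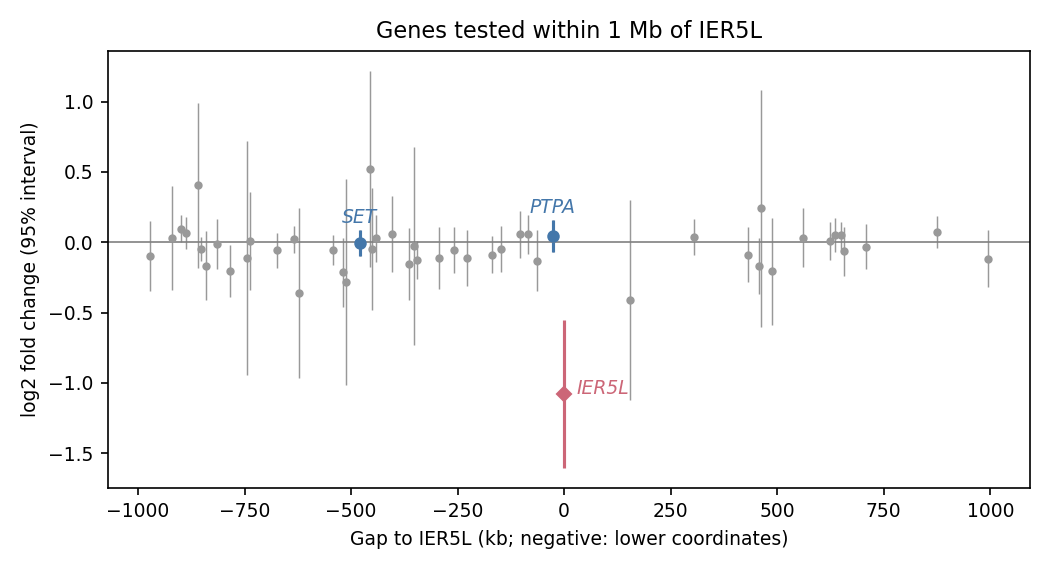
Log2 fold change with its 95% interval for the genes tested within 1 Mb of IER5L, against their distance from it in kb. PTPA and SET are marked, and no gene in the window passed an adjusted p of 0.05.

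The genes these regulators act on or with were read from the same fit. Of 19 PP2A subunit genes, 1 passed an adjusted p of 0.05, against 3.93% of all genes, and 4 had an unadjusted p under 0.05, against 16.5%. Estimates were higher for 11 and lower for 8, and the median log2 fold change was 0.036, against 50.6% higher and 0.0021 over all genes tested. The gene that passed was PPP2R3A, a regulatory B″ subunit that binds calcium, at 36.1, 37.1, 34.4 and 39.1 CPM in shScramble and at 28.5, 30.7, 28.7 and 31.7 CPM in shIER5L. All silenced samples were below all control samples. The log2 fold change of PPP2R3A was -0.30 (SE 0.0678, adjusted p = 0.0209, edgeR). The adjusted p of PPP2R3A was 0.0732 and 0.0807 without shScramble replicates 2 and 4, and 0.0617 and 0.0685 without shIER5L replicates 1 and 3.

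Of 8 other PP2A inhibitors and biogenesis factors, 0 passed in edgeR, DESeq2 or limma voom, and 1 had an unadjusted p under 0.05: TIPRL, which binds free catalytic subunits, with a log2 fold change of 0.13 (SE 0.0527, adjusted p = 0.206, edgeR). The 10 genes of the related phosphatases PP4 and PP6, which IGBP1 and TIPRL also bind, held 0 calls in those 3 tools and 1 unadjusted p under 0.05, for PPP4R3B, a regulatory subunit of PP4, at 0.12 (SE 0.0427, adjusted p = 0.133, edgeR). Of these 10, 8 estimates were higher and 2 lower, with a median of 0.038, against 50.6% higher and a median of 0.0021 over all genes tested. The 10 mitotic entry genes around Greatwall, such as CDK1 and CCNB1, held 0 calls in those tools and 1 unadjusted p under 0.05, for the CDK-activating phosphatase CDC25B at -0.16 (SE 0.0727, adjusted p = 0.282, edgeR). Beside each of these lists, edgeR called 3.93% of all genes tested, and 16.5% had an unadjusted p under 0.05.

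Of 7 genes of the SET complex and the NAP histone chaperone family, to which SET belongs by fold, 5 were tested, and TREX1 and GZMA had 0 counts in every sample. Reads on exons of 2 genes were given to neither, and overlaps of TREX1 and GZMA were not examined. Their 0 counts therefore need not mean that no RNA was present. NAP1L4, a histone chaperone, was the 1 that passed, against 3.93% of all genes, and 2 of the 5 had an unadjusted p under 0.05, the other being APEX1, a DNA repair endonuclease of the SET complex (log2 fold change -0.11, SE 0.0438, adjusted p = 0.22, edgeR). NAP1L4 stood at 203, 210.5, 203 and 198 CPM in shScramble and at 177, 164, 170 and 168 CPM in shIER5L. The conditions were far apart against their spread, at 204 ± 5.27 and 170 ± 5.17 CPM (SD, n = 4 each). NAP1L4 had a log2 fold change of -0.26 (SE 0.042, adjusted p = 0.00191, edgeR), and the adjusted p stayed under 0.05 with each sample left out. The study's fold threshold of 0.5 was met by neither PPP2R3A nor NAP1L4, and 0.79% of all genes tested met it together with the adjusted p.

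**Figure D5:**
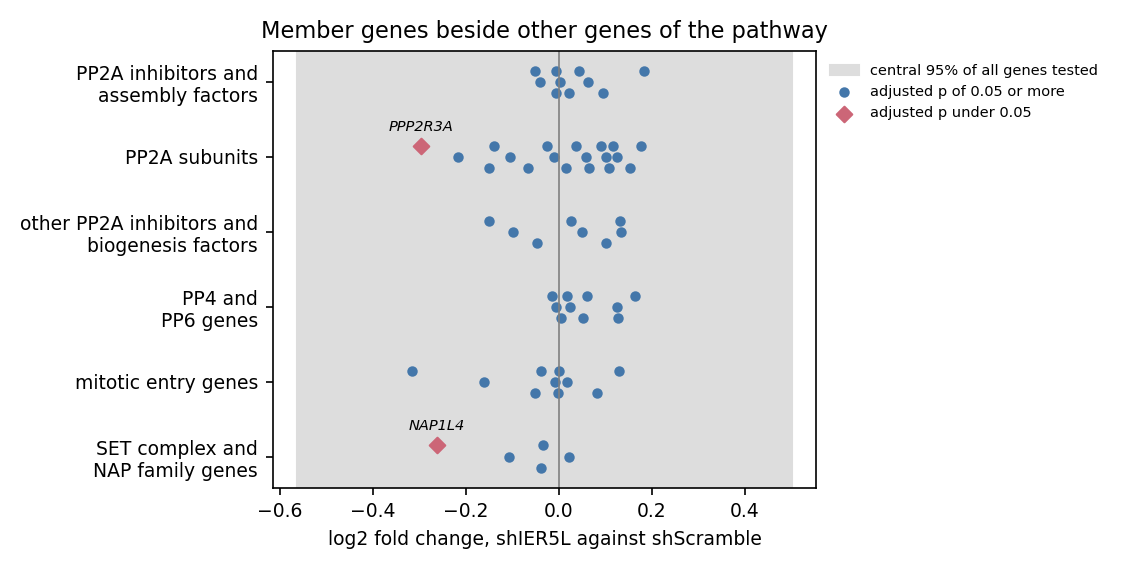
Log2 fold change of each gene in the 10 members and in the 5 lists of related genes, with 1 point per gene. PPP2R3A at -0.30 and NAP1L4 at -0.26 are the genes with an adjusted p under 0.05.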

How the data were processed

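The authors deposited 1 table of raw counts per gene for 8 samples. Per the methods and the file header, the authors used STAR 2.7.5c for alignment to hg38, SAMtools 1.15 to drop duplicates and featureCounts 2.0.3 to count primary alignments on exons, without strand and with both reads of a pair counted, so counts overstate independent fragments. The methods name a ribosomal RNA depletion kit and the labels a poly(A) kit.

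From these counts, genes were kept with filterByExpr (16959), TMM factors were computed, and edgeR 4.0.16 (R 4.3.3) gave quasi-likelihood tests of condition alone, without other terms, adjusted over all genes tested by Benjamini-Hochberg. The SE was derived from the F statistic and the log2 fold change, and 95% intervals use it. Alternatives were RLE and upper quartile scaling, other filters, DESeq2 1.42.0, voom of limma 3.58.1, a replicate block, each sample left out and counts halved. Symbols, 3′ UTRs and heptamer site positions came from GENCODE v44 on hg38, and 56948 of the 58051 identifiers had a symbol. Gene positions and exonic lengths were those supplied with the counts, and some gene ends differ from GENCODE v44.

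The 10 genes and the lists were chosen with earlier results of these data known. Named genes were the 10, IER5L, each list gene past an adjusted p of 0.05 or else the one with the smallest p, with pairs, copies and neighbours of IER5L. Protein sequences were not used here.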

Additional observations from a re-analysis of the deposited data

Results flagged for a closer look

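In 2 cases 1 sample of a condition lay far from the other 3, with a gap to its nearest neighbour, over the condition's whole range, above Dixon's 95% critical value. ARPP19 in shScramble replicate 2 stood at 208 CPM, below the other controls at 225 to 228 CPM (gap over range 0.873). PPME1 in shScramble replicate 1 stood at 26.9 CPM, below the other controls at 31.2 to 32 CPM (gap over range 0.841). In all, 32 sets of 4 samples were examined, 16 genes in both conditions, and chance flags about 1 in 20. Without shScramble replicate 2 the log2 fold change of ARPP19 was 0.06, and without shScramble replicate 1 that of PPME1 was -0.032, and neither passed the test.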

How the results depend on the processing

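Under 16 alternatives, 0 of the 160 values of the 10 genes passed an adjusted p of 0.05. The smallest adjusted p was 0.2103, for ARPP19, and the largest absolute log2 fold change was 0.21, for LCMT1. The sign turned in 16 of the 160, in SET, MASTL, PPME1 and IGBP1, the genes nearest 0. With each sample left out in turn, the log2 fold change ran from -0.0322 to 0.0255 for SET, -0.0379 to 0.0253 for MASTL, -0.0324 to 0.0499 for PPME1 and -0.0138 to 0.0294 for IGBP1. Over the same fits CIP2A ran from 0.0288 to 0.1023, ANP32A from -0.0666 to -0.0159, ARPP19 from 0.0598 to 0.1277, ENSA from -0.0734 to -0.034, PTPA from 0.0168 to 0.0773 and LCMT1 from 0.1355 to 0.2121, none of them turning sign. IGBP1 was also at -0.0047 with RLE scaling, -0.0137 with upper quartile scaling, -0.0103 with no filter, -0.0124 with at least 1 CPM in 4 samples, -0.0048 with DESeq2 and -0.0017 with counts halved, the 1 alternative chosen after seeing the data.

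Of the other PP2A genes, 1 was called (PPP2R3A), against 2 with no filter and 2 with at least 1 CPM in 4 samples (with STRN), 3 with DESeq2 (with STRN and PPP2R5C), and 0 to 2 with each sample left out: 0 without shScramble replicates 2 or 4 or shIER5L replicates 1 or 3, and 2 without shIER5L replicate 2. Within 1 Mb of IER5L, DYNC2I2 was called with no filter. Over all genes 666 were called, and 305 to 756 with each sample left out, the falls past 1.5 times being 341, 305 and 434 without shScramble replicates 2, 3 and 4 and 358 without shIER5L replicate 3. With the fold threshold the count was 134, and 86 to 135 with each sample left out, the lowest without shScramble replicate 3. The description label of shScramble replicate 3 gives another control number than those of the other controls, and its meaning is not known here. The cause of the falls was not tested. Deviations of samples with the same replicate number correlated weakly (-0.048, 0.0977, -0.041 and 0.144 for replicates 1 to 4). The replicates 4 correlated best with each other. Best for shScramble replicate 2 was shIER5L replicate 2, whose own best was shScramble replicate 3. With the replicate number as a block 655 genes were called, 137 past the fold threshold, 0 of the 10 genes and 1 other PP2A gene. For IER5L the block moved the SE from 0.248 to 0.178 and the adjusted p from 0.0212 to 0.00148 (edgeR).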
